A study of Homo sapiens with 45 samples.

Results

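Small RNA sequencing assigns reads to every annotated transcript that yields short fragments, and a large share of them can come from the mitochondrial genome. The rows of the deposited count tables that carry mitochondrial RNA were taken as the 22 rows named for a mitochondrial tRNA plus the Ensembl transcript rows whose first transcript belongs, in GENCODE release 29, to a gene with a symbol starting MT-. This gave 58 of 167112 rows: 22 tRNA rows and 36 transcript rows, the latter for 21 tRNA genes, 2 rRNA genes and 13 mRNA genes. MT-TS1, the gene of tRNA-Ser(TGA), had a tRNA row and no transcript row, so 21 tRNA genes had both.

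The libraries were made from HCT116, a human colorectal carcinoma line, and its knockout derivatives, in 15 groups of 3 libraries labelled as biological replicates. The 8 whole-cell groups were wild type (WT), AGO1-/-, AGO2-/-, AGO1-/- AGO2-/- (AGO1/2), the AGO1, AGO2 and AGO3 knockout (AGO1/2/3), TNRC6A-/-, TNRC6B-/- and the knockout of both TNRC6 genes (TNRC6A/B). The 7 immunoprecipitation (IP) groups were an AGO1 IP (antibody 2A7) from WT and AGO1-/- cells, an AGO2 IP (antibody 3148) from WT and AGO2-/- cells, and an IP with a pan-AGO antibody from WT, AGO1/2 and AGO1/2/3 knockout cells. AGO proteins are guided to their targets by the small RNAs they hold, and TNRC6 proteins are the scaffolds that AGO recruits to silence those targets. No clone is named in the labels, so a genotype and the clone that carries it cannot be told apart. p-values measure the spread between these libraries.

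Human mitochondrial DNA is transcribed from both strands into long precursors in which most rRNAs and mRNAs are separated by tRNAs. RNase P and RNase Z cut at the ends of each tRNA and so release the mRNAs and rRNAs between them, after which the tRNAs receive a CCA tail, base modifications and an amino acid. Fragments of mitochondrial tRNAs are common in small RNA libraries. AGO proteins act mainly in the cytosol and nucleus, and mitochondrial RNA is held inside the organelle until its membranes are broken, as they are when cells are lysed. In bulk RNA, fewer mitochondria, less RNA per mitochondrion and less fragmentation of it cannot be told apart.

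The tRNAs on which the results turn are printed as the GENCODE gene sequences (GRCh38, mitochondrial chromosome), 5′ to 3′ in RNA sense with the anticodon in capitals and without the added CCA. Glu, Gln and Val are shown because they were among the most abundant whole-cell fragments and were lower in all 3 IPs of WT cells than in whole-cell RNA, Met because it led the AGO1 knockout, Phe and Ser(GCT) because they made up more of the mitochondrial tRNA counts in the WT IPs, Gly because it rose in the AGO1/2/3 knockout and Thr because it rose in the pan-AGO IP of that knockout. Asp is shown because its transcript row rose most in the TNRC6 knockouts.
mt-tRNA-Glu (MT-TE, chrM:14674-14742, minus strand): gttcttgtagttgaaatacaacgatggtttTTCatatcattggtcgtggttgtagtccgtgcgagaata
mt-tRNA-Gln (MT-TQ, chrM:4329-4400, minus strand): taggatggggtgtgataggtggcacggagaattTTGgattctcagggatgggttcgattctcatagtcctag
mt-tRNA-Val (MT-TV, chrM:1602-1670, plus strand): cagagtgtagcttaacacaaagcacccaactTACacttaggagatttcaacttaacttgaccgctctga
mt-tRNA-Met (MT-TM, chrM:4402-4469, plus strand): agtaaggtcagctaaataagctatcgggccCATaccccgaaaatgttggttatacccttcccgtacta
mt-tRNA-Phe (MT-TF, chrM:577-647, plus strand): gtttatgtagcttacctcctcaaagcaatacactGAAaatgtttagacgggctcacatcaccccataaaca
mt-tRNA-Ser(GCT) (MT-TS2, chrM:12207-12265, plus strand): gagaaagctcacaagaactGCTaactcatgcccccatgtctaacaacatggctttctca
mt-tRNA-Gly (MT-TG, chrM:9991-10058, plus strand): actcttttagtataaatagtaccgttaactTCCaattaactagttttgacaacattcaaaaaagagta
mt-tRNA-Thr (MT-TT, chrM:15888-15953, plus strand): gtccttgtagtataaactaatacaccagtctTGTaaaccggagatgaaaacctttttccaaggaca
mt-tRNA-Asp (MT-TD, chrM:7518-7585, plus strand): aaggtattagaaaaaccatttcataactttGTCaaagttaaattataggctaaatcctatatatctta
The 59 bases of tRNA-Ser(GCT) are the fewest of the 22 genes. This tRNA is known to lack the D arm. In all, 8 of the 22 tRNA genes lie on the minus strand of the reference and 14 on the plus strand.

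Library totals ran from 1783590 to 9860313 counts. A library stood furthest apart from its group in 2 whole-cell knockouts. The chi-square per degree of freedom between the counts of a pair was 101 and 124 for AGO1/2/3 replicate 1. It was 10.98 between the other libraries of that group. For AGO2 replicate 2 it was 77.0 and 83.1 against 14.2. TNRC6A/B replicate 3 also stood apart, at lower values of 16.0 and 22.5 against 3.88. Reads of the targeted genes were few and do not show where a gene was mutated: AGO1 had 36, 29 and 22 counts in the WT libraries and 12, 4 and 8 in the AGO1 knockout, and AGO3 had 39, 22 and 48 against 2, 10 and 4 in the AGO1/2/3 knockout. AGO2 was at 12.97, 18.01 and 19.5 CPM (counts per 1000000) in WT and at 9.76, 8.18 and 16.0 in the AGO2 knockout, with overlap. It was not lower in the other libraries labelled as lacking it, at 21.5, 19.4 and 25.6 CPM in the AGO1/2 knockout and 19.4, 21.02 and 21.98 in the AGO1/2/3 knockout, so its reads do not check these labels, and the knockouts are called by their labels throughout. TNRC6A counts were 50, 65 and 42 in WT and 16, 36 and 44 in its knockout, and the groups overlapped, while TNRC6B had 87, 88 and 82 against 14, 55 and 36. Colon epithelial miRNA markers, 7 in the list and none at 0 in every library of a group, summed to 703 to 881 CPM in WT, 281 to 458 in the AGO1, 317 to 596 in the AGO2, 116 to 135 in the AGO1/2 and 10.9 to 22.4 in the AGO1/2/3 knockout, and 817 to 1589 in the TNRC6 knockouts. The 4 blood markers summed to 3.46 to 4.89 CPM in WT, 2.54 to 3.90 in the AGO1, AGO2 and AGO1/2 knockouts, 5.69 to 11.4 in the AGO1/2/3 knockout and 6.94 to 14.5 in the TNRC6 knockouts. The 5 markers of stroma, muscle and endothelium summed to 72.2 to 78.5 CPM in WT, 21.1 to 37.9 in the AGO1, 30.4 to 73.6 in the AGO2, 14.02 to 22.3 in the AGO1/2 and 3.97 to 6.60 in the AGO1/2/3 knockout, and 115 to 207 in the TNRC6 knockouts. None of either list was at 0 in every library of these groups. The part of these marker levels in the results was not tested. Mature miRNA rows, which every share of a total has to be read against, held 5.26% of counts in WT whole-cell RNA, 1.74 to 3.69% in the AGO knockouts, 7.87 to 10.1% in the TNRC6 knockouts and up to 81.8% in the WT AGO2 IP. Levels are given as CPM, the count of a row scaled to 1000000 counts per library, and levels are compared between genes only per kilobase of the gene.

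Mitochondrial rows took 20.6, 20.4 and 21.6% of all counts in the WT whole-cell libraries, with a mean of 20.9% ± 0.66 (SD, n = 3). tRNA rows carried most of this, with 14.6, 13.7 and 16.3% of counts. The 2 rRNA rows carried 4.64% ± 0.609, the 13 mRNA rows 1.103% ± 0.12 and the transcript rows of the tRNA genes 0.256% ± 0.0261. Across the other groups the summed mitochondrial share had its lowest mean in the WT AGO2 IP, at 5.74%, and its highest in the pan-AGO IP of the AGO1/2/3 knockout, at 49.0%.

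**Figure D1:**
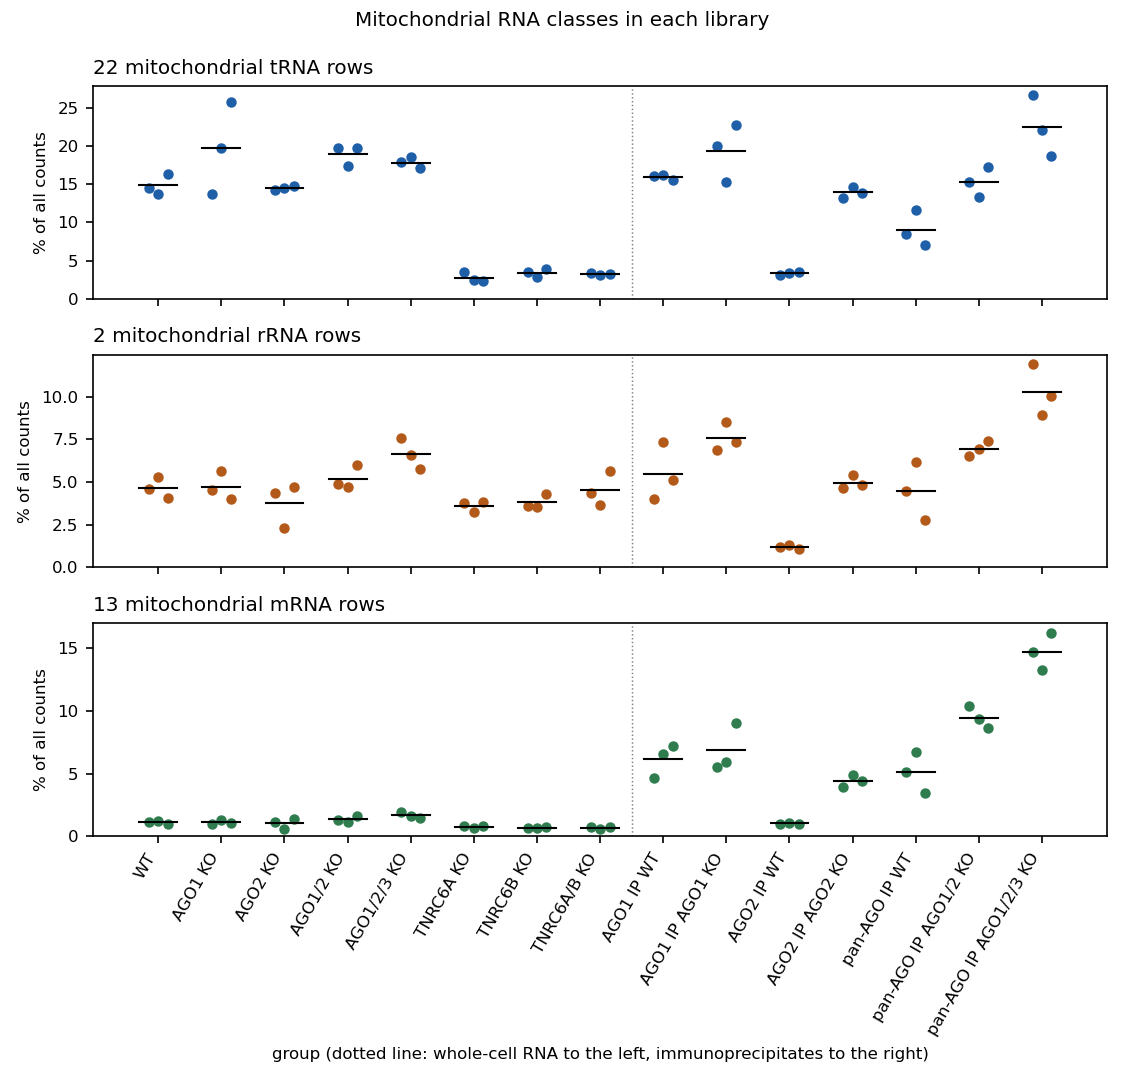
Percent of all counts of each library (points) in mitochondrial tRNA rows, rRNA rows and mRNA rows, for the 15 groups; the black line is the mean of 3 libraries and the dotted line separates whole-cell RNA from IPs. The tRNA rows sit at 2.75 to 3.40% in the TNRC6 knockouts against 14.9% in WT, and the mRNA rows reach 14.7% in the pan-AGO IP of the AGO1/2/3 knockout.

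A single tRNA dominated the WT cells. tRNA-Glu held 42.9, 49.5 and 35.2% of all mitochondrial tRNA counts, against 9.27% for Val, 8.76% for Phe, 8.19% for Gly and 6.99% for Gln. On the per-length scale tRNA-Glu stood at 907850 CPM per kilobase ± 75967, and its lowest library was above every library of any other row. Val (203060 ± 74650), Phe (185840 ± 54672), Gly (179550 ± 22521) and Gln (145720 ± 38124) followed, and these neighbours in the order did not differ beyond their spread. The rarest tRNA row was Asn, at 2868 CPM per kilobase.

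The rRNA and mRNA rows were far below the leading tRNAs per length. MT-RNR2, the large ribosomal subunit RNA, reached 21670 CPM per kilobase and MT-RNR1, the small subunit RNA, 13190. Among the mRNAs MT-ATP8, which encodes a short ATP synthase subunit, led at 3594.2, followed by the complex I subunit MT-ND3 at 2176.8 and cytochrome b, MT-CYB, at 2022.8. MT-ND6, the one mRNA of the opposite strand, was lowest at 80.7. The transcript row of a tRNA gene was usually a small addition to its tRNA row: it held 0.383% of the gene's counts for Glu and 0.234% for Val, but 11.1% for Gln. The labels and files do not state how a read that matches both rows was placed.

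**Figure D2:**
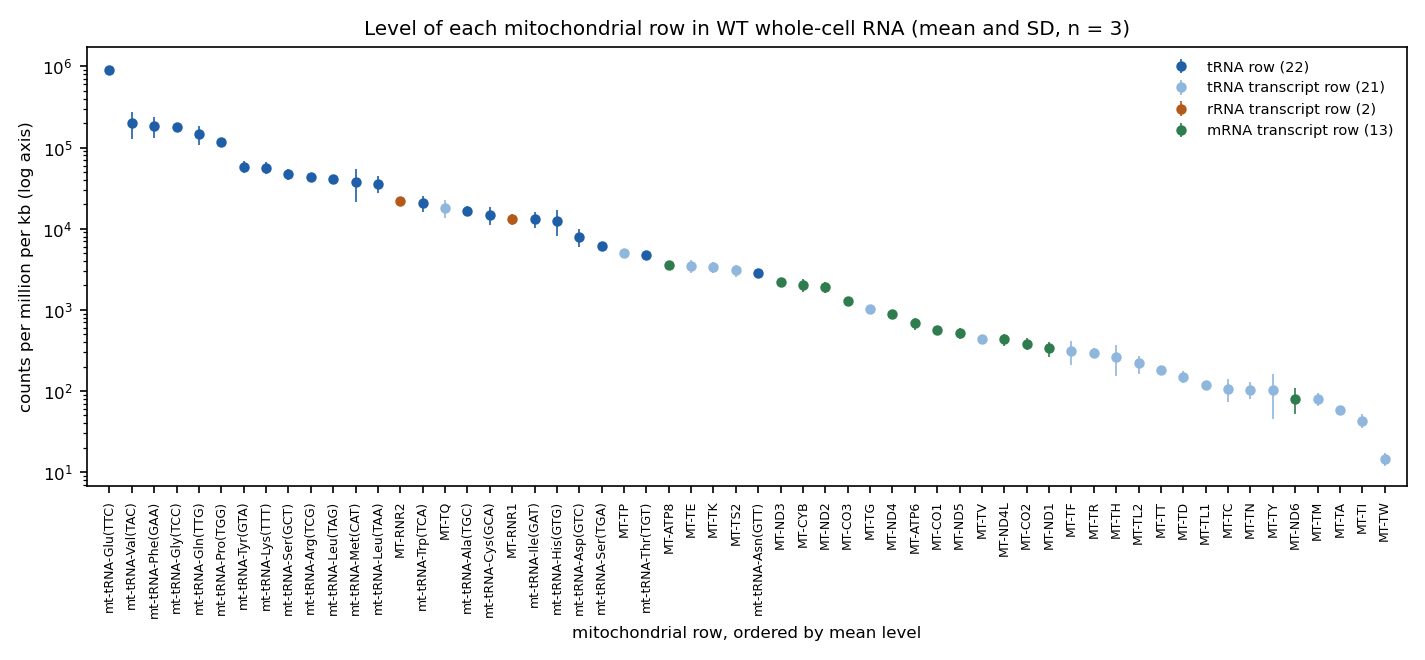
Mean and SD (n = 3) of the level of each of the 58 mitochondrial rows in WT whole-cell RNA, in CPM per kilobase on a log axis, ordered by level and coloured by class. tRNA-Glu, at 907850, stands above Val at 203060; the mRNA rows lie between 80.7 and 3594.2.

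Loss of single AGO proteins was compared with WT in whole-cell RNA. In the AGO1 knockout 5 of 57 tested mitochondrial rows rose and 1 fell, where 4.7% of all 18805 tested features rose and 2.93% fell. The rows that rose were tRNAs: Met, which also starts mitochondrial translation, His with its transcript row MT-TH, Val and Gln. tRNA-Met was at 2472.9, 1511.6 and 3701 CPM in WT and at 5289.5, 6203 and 20923 in the AGO1 knockout. Every knockout library was above every WT library, and knockout replicate 3 stood well above the other two. Its log2 fold change was 2.08 ± 0.39 (SE; adjusted p = 0.000295, edgeR's quasi-likelihood test with Benjamini-Hochberg adjustment). Without replicate 3 the change was 1.17, with an adjusted p of 0.0501.

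tRNA-Gln was at 8876, 8938.1 and 13661 CPM in WT and at 16837, 22912 and 24246 in the AGO1 knockout, and the groups did not overlap. It rose by 1.02 ± 0.32 (adjusted p = 0.0337, same test). tRNA-Val was at 13798, 8970.4 and 19265 CPM in WT and at 17900, 38348 and 54082 in the knockout; the lowest knockout library lay inside the WT range although the row rose by 1.39 ± 0.36 (adjusted p = 0.00815). tRNA-His rose by 1.11 ± 0.29 and MT-TH by 1.94 ± 0.37. MT-TR, the transcript row of tRNA-Arg and named here after its values were seen, was the row that fell, by 1.33 ± 0.32 on the log2 scale, from 21.4, 20.2 and 16.0 CPM to 7.10, 10.4 and 5.32. With TMM scaling Val, His and Gln no longer passed (adjusted p = 0.0564, 0.0519 and 0.156). Without knockout replicate 3 all 4 tRNA rows, Met included, and MT-TR lost their calls and 1 member was called. Gln also lost its call without knockout replicate 2, and Gln, His and Val each lost theirs without WT replicate 1 and without WT replicate 2. Met and MT-TH kept their calls under TMM.

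The make-up of the tRNA pool is given by shares, which were not tested. tRNA-Glu made up 22.3% of mitochondrial tRNA counts in the AGO1 knockout and 29.6% in the AGO2 knockout against 42.5% in WT, and Val made up 17.8% and 15.9% against 9.27%. The level of tRNA-Glu was 31528, 51113 and 46729 CPM in the AGO1 knockout and 47307, 42245 and 39004 in the AGO2 knockout, below all WT libraries (62512, 67947 and 57466). It did not pass the test in either knockout. In the AGO2 knockout no mitochondrial row was called, where 0.0372% of features rose and 0.186% fell. There, 7 of the 57 rows had an unadjusted p under 0.05 in edgeR's quasi-likelihood test, as did 1486 of all features, and DESeq2 called 0 rows. No row was called without replicate 2 of the knockout, the library that stood apart.

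In the AGO1/2 knockout 2 rows rose and none fell, where 1.49% of features rose and 2.13% fell. Both were transcript rows of tRNA genes. MT-TK, for lysine, went from 277, 199 and 232 CPM in WT to 610.1, 541 and 650.3, with no overlap, a log2 change of 1.35 ± 0.28 (adjusted p = 0.00166, edgeR's quasi-likelihood test). MT-TR rose by 1.01 ± 0.31 (adjusted p = 0.0497), a call that was lost when any 1 of the 6 libraries was left out. In edgeR's quasi-likelihood test 9 of the 57 rows (15.8%) had an unadjusted p under 0.05, as did 15.2% of all features.

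In the AGO1/2/3 knockout tRNA transcript rows, tRNA-Gly and MT-CYB rose. In all 16 of 57 rows rose and 1 fell, where 6.49% of all features rose and 20.1% fell. The risers were 9 tRNA transcript rows, 4 tRNA rows and 3 mRNA rows. The median member stood at 0.49 (log2) against -0.45 for all features, and 56 of the 57 rows lay above that overall median. MT-TK reached 1105.9, 781 and 589 CPM against 277, 199 and 232 in WT (log2 change 1.80 ± 0.29, adjusted p = 4.13e-06, edgeR's quasi-likelihood test). tRNA-Gly was at 20102, 33913 and 34872 CPM against 12088, 10742 and 13798 in WT, also without overlap (1.28 ± 0.32, adjusted p = 0.002).

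Among other transcript rows MT-TR rose by 1.54 ± 0.31, MT-TL2 of the second leucine tRNA by 1.31 ± 0.29 and MT-TT, for threonine, by 1.04 ± 0.28. tRNA-Lys rose by 1.05 ± 0.29 from 4098.1, 3197.9 and 4539.9 to 8860.4, 8436.5 and 7230.3 CPM. tRNA-Leu(TAG) rose by 0.89 ± 0.31. Among mRNAs MT-CYB rose by 0.98 ± 0.32, from 2793.4, 2118.8 and 2011.8 to 4898.5, 4338.7 and 4399 CPM. MT-ND6, named after its values were seen, fell by 0.86 ± 0.31 and its groups overlapped at 25.5 to 53.8 CPM in WT and 17.0 to 28.6 in the knockout. The call of tRNA-Leu(TAG) was lost without knockout replicate 2 or 3 or any 1 of the WT libraries, that of MT-CYB without WT replicate 2 or 3 and that of tRNA-Lys without WT replicate 2, which left 7 members called. No member was called lower without knockout replicate 2 or 3 or WT replicate 1 or 2. Without knockout replicate 1, the library that stood apart, 12 members rose and 1 fell. With TMM scaling, where the median of all features was -0.09, 25 members rose and none fell, beside 10.9% and 12.3% of all features.

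tRNA-Glu was at 79881, 47869 and 35267 CPM in the AGO1/2/3 knockout, a range that spans the WT libraries, and did not pass the test. Its share of mitochondrial tRNA counts was 30.4%. Nuclear genes for mitochondrial RNA handling and for the respiratory chain are background lists here, chosen with earlier results known. In this comparison 20.1% of all features fell, and their median was -0.45. Of 6 tested genes for mitochondrial transcription, processing and decay, 2 fell and none rose (median -1.39): LRPPRC, which binds and stabilises mitochondrial mRNAs, fell by 2.30 ± 0.33, from 20.8 to 4.13 CPM (adjusted p = 4.03e-07, edgeR's quasi-likelihood test), and TRMT10C, a subunit of mitochondrial RNase P, fell by 1.72 ± 0.39. Of 17 nuclear-encoded respiratory chain subunits 9 fell and none rose (median -1.30), among them the ATP synthase subunit ATP5F1A, by 2.29 ± 0.41. Mature miRNA rows held 1.74% of counts in these libraries and cytosolic rRNA rows 18.8%, against 5.26% and 36.3% in WT. Their part in the result was not tested.

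In the TNRC6 knockouts mitochondrial tRNA fragments were far scarcer. tRNA rows held 3.51, 2.46 and 2.26% of counts in the TNRC6A knockout, 3.40% ± 0.525 in the TNRC6B knockout and 3.25% ± 0.0951 in the double knockout, against 14.9% ± 1.32 in WT. Of the 22 tRNA rows 16 fell in the TNRC6A knockout, 16 in the TNRC6B knockout and 14 in the double knockout, and none rose in any of them. The rRNA rows did not pass the test, with MT-RNR2 at -0.40 ± 0.31 (adjusted p = 0.287, edgeR's quasi-likelihood test) and MT-RNR1 at -0.26 ± 0.30 (adjusted p = 0.497) in the TNRC6A knockout. Over all 57 rows 15 rose and 22 fell in the TNRC6A knockout, where 33.4% and 11.4% of all features did so. The counts were 14 and 26 in the TNRC6B knockout (33.4% and 11.6% of features) and 14 and 23 in the double knockout (34.3% and 11.4%).

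tRNA-Glu went from 62512, 67947 and 57466 CPM in WT to 3012.2, 1830.3 and 1382.8 in the TNRC6A knockout, 2518.9, 1937.6 and 2184.3 in the TNRC6B knockout and 2729.2, 2448.7 and 2503.4 in the double knockout. All knockout libraries lay far below all WT libraries. The log2 changes were -4.92 ± 0.38, -4.82 ± 0.37 and -4.61 ± 0.37 (adjusted p = 3.97e-16, 6.94e-16 and 2.33e-15, edgeR's quasi-likelihood test). tRNA-Gln moved alike, from 8876, 8938.1 and 13661 CPM in WT to 401, 333 and 334 in the TNRC6A knockout, changes of -4.88 ± 0.37, -4.72 ± 0.37 and -4.38 ± 0.36 in the 3 knockouts.

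tRNA-Arg changed by -3.66 ± 0.34, -3.29 ± 0.33 and -3.29 ± 0.33. In the TNRC6A knockout tRNA-Met fell by 2.89 ± 0.41, Val by 2.43 ± 0.37 and Phe by 2.31 ± 0.31. Not every tRNA fell. tRNA-Leu(TAG) stood at 4180.2, 2892.1 and 2969.6 CPM in the TNRC6A knockout against 2992, 2871.9 and 2844.3 in WT (log2 change 0.21, adjusted p = 0.605), and it made up 12.3% of mitochondrial tRNA counts there against 1.96% in WT. tRNA-Glu made up 7.37% of them in the TNRC6A knockout, 6.56% in the TNRC6B knockout and 7.87% in the double knockout, against 42.5% in WT.

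Many transcript rows of the same tRNA genes went the other way: 11 of 20 tested rows rose in each TNRC6 knockout, where 33.4 to 34.3% of all features rose, while 3, 4 and 4 fell. With TMM scaling 5, 6 and 6 of them rose, beside 17.2, 16.4 and 16.8% of features, and 6, 5 and 5 fell, beside 20.2, 20.4 and 20.2%. MT-TD, the transcript row of tRNA-Asp, was at 12.1, 10.2 and 8.57 CPM in WT and at 209, 94.4 and 71.3 in the TNRC6A knockout. It was at 256, 149 and 154 CPM in the TNRC6B knockout and at 217, 146 and 119 in the double knockout, so no knockout library overlapped WT. Its log2 changes were 3.60 ± 0.37, 4.18 ± 0.38 and 3.96 ± 0.38 (adjusted p = 1.04e-11, 1.59e-13 and 6.78e-13, edgeR's quasi-likelihood test). MT-TV rose by 2.58 ± 0.31, 3.06 ± 0.31 and 2.81 ± 0.31, and MT-TC, for cysteine, by 2.40 ± 0.29, 2.98 ± 0.30 and 2.69 ± 0.29.

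MT-TQ was among the transcript rows that fell. It fell with its tRNA row, from 1141.9, 1104 and 1692.7 CPM in WT to 5.51, 6.04 and 4.70 in the TNRC6A knockout, 6.45, 3.998 and 6.23 in the TNRC6B knockout and 8.33, 3.34 and 18.3 in the double knockout. Its changes of -7.92 ± 0.45, -7.89 ± 0.45 and -6.97 ± 0.43 were larger in size than those of its tRNA row in each knockout; the difference between the rows was not tested. As a share of the gene's counts in both rows, the MT-TQ transcript row went from 11.1% in WT to 1.51% in the TNRC6A knockout. The Asp transcript row went from 1.99% to 22.3%, and those of Glu from 0.383% to 9.52% and of Val from 0.234% to 6.49%. The mean share was above WT for 19 of 21 tRNA genes in the TNRC6A knockout, 19 in the TNRC6B knockout and 17 in the double knockout. It was also above WT for 13 in the AGO1/2 and 15 in the AGO1/2/3 knockout and for 16 to 18 in the IP groups, but for 1 in the AGO1 and 3 in the AGO2 knockout. These counts were not tested.

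**Figure D3:**
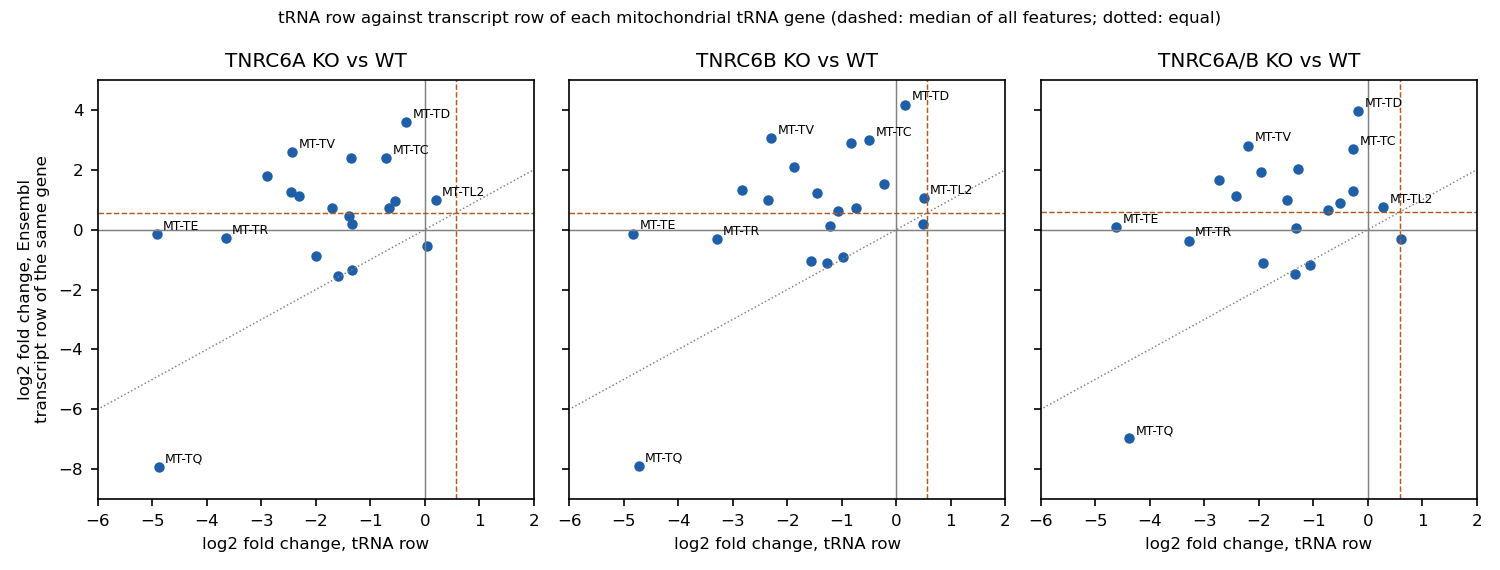
Log2 fold change against WT of the transcript row (vertical) and the tRNA row (horizontal) of each mitochondrial tRNA gene in the 3 TNRC6 knockouts; dashed lines mark the median of all features and the dotted line equal change. Most points lie above the dotted line, and MT-TQ, at -7.92 in the TNRC6A knockout, lies below it.

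Among the mRNAs MT-ATP8 fell, from 775, 816 and 641 CPM in WT to 99.8, 105 and 164 in the TNRC6A knockout, with changes of -2.60 ± 0.38, -2.80 ± 0.38 and -2.68 ± 0.38 in the 3 knockouts. MT-CYB changed by -2.09 ± 0.33, -2.12 ± 0.33 and -2.19 ± 0.33. MT-ND4L, a complex I subunit, rose by 1.36 ± 0.31, 1.07 ± 0.31 and 1.19 ± 0.31, and MT-ND1 rose by 1.00 ± 0.29 in the TNRC6A knockout. The median of all features was 0.57, 0.57 and 0.58 in these comparisons, and in the TNRC6A knockout MT-ND4L exceeded it by 0.78 and MT-ND1 by 0.43. With TMM scaling 20, 17 and 18 of the 22 tRNA rows fell, where 20.2, 20.4 and 20.2% of features did; MT-TD, MT-TV and MT-TC remained higher in all 3, and MT-ND1 and, in the TNRC6B and double knockouts, MT-ND4L lost their calls.

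Other RNA classes also changed in the same libraries, cytosolic tRNAs downward and cytosolic rRNAs and other small RNAs upward. Cytosolic tRNA rows held 0.987, 0.946 and 1.09% of counts in the 3 TNRC6 knockouts against 16.2% in WT. Of 409 tested rows 399, 399 and 394 fell while 1 rose in each, where 11.4, 11.6 and 11.4% of all features fell and 33.4, 33.4 and 34.3% rose. Cytosolic rRNA rows held 54.2, 53.6 and 51.2% against 36.3%, and rows named for snoRNAs and other small RNAs held 0.601, 0.564 and 0.629% against 0.0185%. The labels of the TNRC6 knockout libraries are written in another form than those of the WT and AGO knockout libraries, and no WT library carries that form. A difference in library making and the TNRC6 genotype therefore cannot be told apart. tRNAs of both strands were lower: the median change of the tRNA rows in the TNRC6A knockout was -1.84 for the 14 plus-strand genes and -1.35 for the 8 minus-strand genes.

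The AGO IPs from knockout cells were compared with the same IP from WT cells. In the AGO1 IP no mitochondrial row was called between AGO1 knockout and WT cells, where 0.0492% of features rose and 1.46% fell. 2 of the 58 rows and 1648 of all 32538 features had an unadjusted p under 0.05 in edgeR's quasi-likelihood test, and DESeq2 called 0 rows. On simulated data of this design only 6.32% of 2-fold changes were recovered, and 78.1% of 4-fold changes. Mitochondrial rows held 25.2, 31.0 and 28.5% of counts in WT and 33.5, 30.6 and 40.0% in the knockout, and the groups overlapped. Mature miRNA rows held 27.2, 13.6 and 11.5% in WT and 1.70% ± 0.225 in the knockout.

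In the AGO2 IP the mitochondrial share was 5.56, 5.89 and 5.76% of counts in WT and 22.4, 25.7 and 23.7% in the AGO2 knockout. 56 of 58 rows rose and none fell, where 90.3% of all features rose and 2.07% fell. The median member rose by 1.86 against 2.17 for all features, and 11 of the 58 lay above that median. Mature miRNA rows held 81.8% in WT and 19.3% in the knockout, so the share left to all other rows differed. Of the counts outside mature miRNA rows, mitochondrial rows held 31.6% in WT and 29.6% in the knockout.

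tRNA-Leu(TAA) was at 1275.2, 1239 and 1462.3 CPM in the WT AGO2 IP and at 11554, 9150.4 and 10071 in the knockout, the largest rise among the named rows (2.95 ± 0.48, adjusted p = 4.43e-06, edgeR's quasi-likelihood test). Its transcript row MT-TL1 rose by 2.71 ± 0.48, tRNA-Ser(GCT) by 2.56 ± 0.45, MT-CO3, a cytochrome oxidase subunit, by 2.37 ± 0.45 and tRNA-Glu by 2.31 ± 0.46. With TMM scaling these 5 changes were 0.83, 0.59, 0.44, 0.22 and 0.18 and none was called, and tRNA-Gly turned from a rise of 1.34 ± 0.44 to -0.79. In all 2 members were called with TMM scaling, both lower, beside 0.24% of all features higher and 3.92% lower.

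The pan-AGO IP gave a graded series. Mitochondrial rows held 18.3, 25.3 and 13.6% of counts in WT, 32.9, 30.3 and 34.1% in the AGO1/2 knockout and 55.2, 45.7 and 46.1% in the AGO1/2/3 knockout, with no overlap between the 3 groups. Mature miRNA rows went down over the same groups, from 42.1% to 19.9% and 8.21%. Of the counts outside mature miRNA rows the mitochondrial share was 32.6%, 40.7% and 53.6%. The mRNA rows went from 5.10% ± 1.62 of counts to 9.48% ± 0.858 and 14.7% ± 1.49, and the rRNA rows from 4.49% ± 1.71 to 6.95% ± 0.444 and 10.3% ± 1.51.

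In the AGO1/2 knockout 6 of 58 rows rose in the pan-AGO IP and none fell, where 1.86% of features rose and 1.27% fell. These were MT-TH (1.65 ± 0.39, adjusted p = 0.0108, edgeR's quasi-likelihood test), tRNA-Val and MT-TV (1.52 ± 0.43 and 1.52 ± 0.40), MT-TT and tRNA-Thr (1.51 ± 0.40 and 1.41 ± 0.39) and MT-TK (1.27 ± 0.37). With TMM scaling, or without replicate 1 or 3 of the WT IP or replicate 1 of the knockout IP, no row was called. The calls of tRNA-Val, MT-TT, tRNA-Thr and MT-TK were also lost without replicate 2 of the knockout IP, these 4 and that of MT-TV without its replicate 3, and that of MT-TK without replicate 2 of the WT IP.

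In the AGO1/2/3 knockout 46 of 58 rows rose in the pan-AGO IP and none fell, where 9.55% of features rose and 5.47% fell. The risers were 19 tRNA transcript rows, 17 tRNA rows, 9 mRNA rows and 1 rRNA row, and all 58 lay above the median of all features (1.70 for the median member against 0.15). tRNA-Val was at 2571.4, 3425 and 2400.3 CPM in WT, 7814.3, 7247.4 and 9072.9 in the AGO1/2 knockout and 35519, 20106 and 16359 in the AGO1/2/3 knockout. The 3 groups did not overlap. Its change in the AGO1/2/3 knockout was 3.10 ± 0.45 (adjusted p = 3.49e-06, edgeR's quasi-likelihood test).

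tRNA-Thr was at 274, 382 and 227 CPM in WT and at 3217.7, 1876.6 and 1572.3 in the AGO1/2/3 knockout, a rise of 2.92 ± 0.41. Its transcript row MT-TT rose by 3.04 ± 0.41, MT-TV by 3.02 ± 0.42 and MT-TH by 3.29 ± 0.41, from 15.3, 19.4 and 13.9 to 229, 143 and 106 CPM. MT-TY (2.50 ± 0.48), tRNA-His (2.41 ± 0.41) and MT-TD (2.32 ± 0.42) followed. These 8 rows kept their calls under TMM scaling and under totals without mature miRNA rows, where tRNA-Val stood at 3.02 and 2.44. In all 41 and 30 rows rose under these scales and none fell, beside 9.86% and 3.86% of features higher.

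Other abundant rows moved less. tRNA-Gly was at 0.39 ± 0.43 (adjusted p = 0.596, edgeR's quasi-likelihood test) and tRNA-Phe at 0.77 ± 0.44 (adjusted p = 0.259). MT-CYB rose by 1.63 ± 0.47 and lost its call with totals without mature miRNA rows (1.01) or without replicate 3 of the knockout IP or replicate 1 or 3 of the WT IP. MT-RNR2 rose by 1.29 ± 0.45, from 30388, 44670 and 19597 to 87824, 65728 and 77931 CPM, a call lost under both other scales (1.21 and 0.67) and when any of 5 of the 6 libraries was left out, all but WT replicate 2. Of other rows, nuclear copies of mitochondrial genes, whose fragments cannot always be told from the mitochondrial ones, rose in 26 of 80 tested rows while none fell. Cytosolic tRNA rows rose in 2 and fell in 178 of 389. Over all features 9.55% rose and 5.47% fell.

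**Figure D4:**
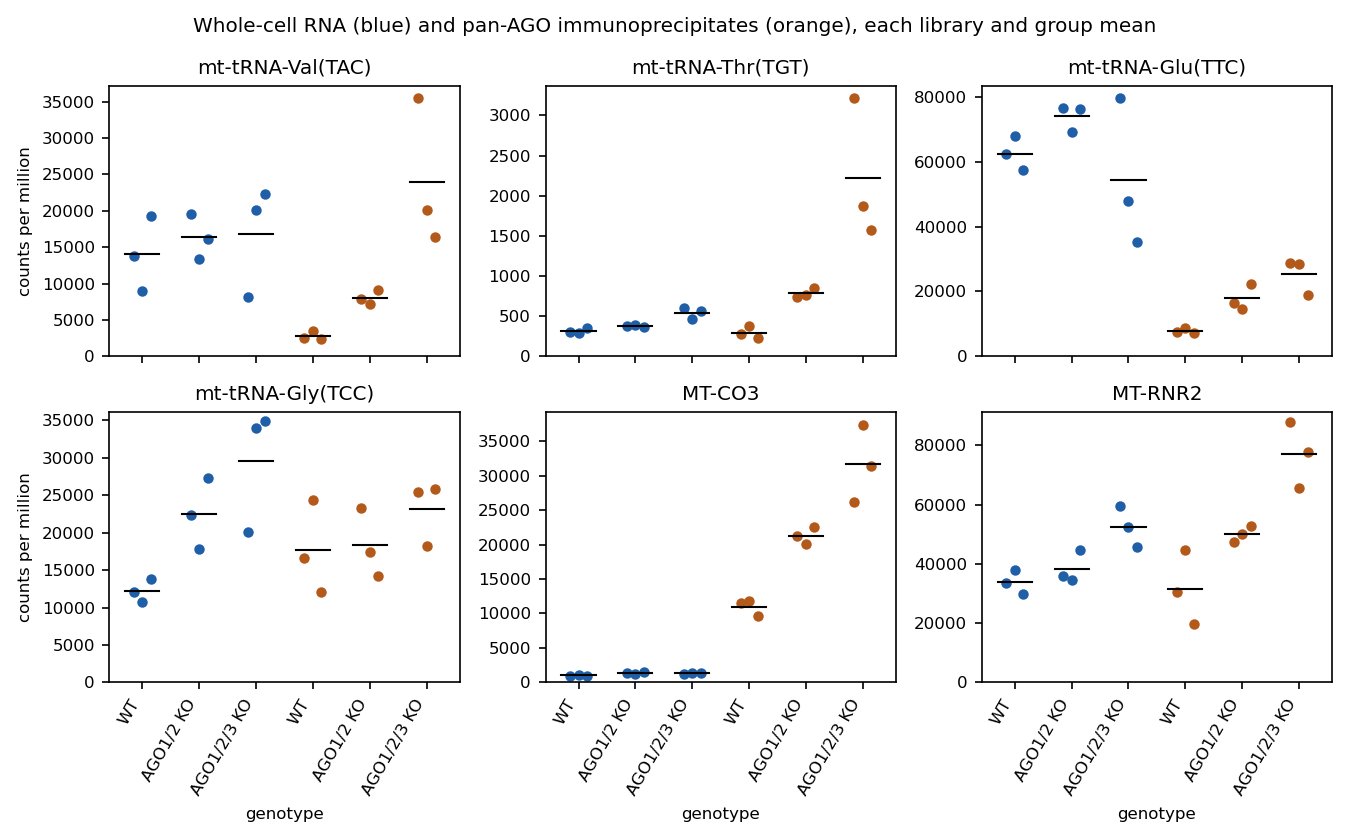
Level (CPM, linear axis) of tRNA-Val, Thr, Glu and Gly, MT-CO3 and MT-RNR2 in each library of whole-cell RNA (blue) and of the pan-AGO IP (orange) for WT, AGO1/2 and AGO1/2/3 knockout cells. tRNA-Val in the IP goes from 2400.3 to 3425 in WT up to 16359 to 35519 in the AGO1/2/3 knockout.

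The AGO1/2/3 knockout effect differed between the pan-AGO IP and whole-cell RNA for 8 of 58 rows, all with the larger rise in the IP, where 1.17% of 28657 features were so called and 1.2% the other way. tRNA-Val had a difference of 2.83 ± 0.63 (adjusted p = 0.00379, edgeR's quasi-likelihood test of the interaction). No row differed when libraries were scaled by TMM or by totals without mature miRNA rows. For the AGO1/2 knockout no row differed, where 0.00349% of features were called higher and 0.105% lower. There, 6 of 58 rows (10.3%), all with the larger change in the IP, and 1772 features (6.18%) had an unadjusted p under 0.05 in the same test.

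The RNA in each IP of WT cells was compared with whole-cell RNA of WT cells. Whether AGO bound a row was not tested. As given above, no mitochondrial row was called in the AGO1 IP between AGO1 knockout and WT cells. In the AGO2 and pan-AGO IPs of knockout cells all called rows were higher than in WT under total counts. There, 90.3% (AGO2), 1.86% (AGO1/2) and 9.55% (AGO1/2/3) of features rose, and 2.07, 1.27 and 5.47% fell. With TMM scaling the rows called in the AGO2 IP were lower. tRNA-Glu, tRNA-Gln, tRNA-Val and MT-TQ were lower in all 3 IPs, and the transcript rows MT-TS2 and MT-TL1 were higher in all 3, under total counts, under TMM and under totals without mature miRNA rows. tRNA-Glu was at 28242, 22205 and 27259 CPM with the AGO1 antibody, 3768.2, 3951.8 and 4663.6 with the AGO2 antibody and 7497.2, 8714.5 and 7265.1 with the pan-AGO antibody, against 62512, 67947 and 57466 in whole-cell RNA. Its changes were -1.27 ± 0.42, -3.92 ± 0.46 and -3.00 ± 0.45 (adjusted p = 0.00381, 1.7e-12 and 4.79e-09, edgeR's quasi-likelihood test). The IPs did not overlap whole-cell RNA.

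MT-TQ was at 281, 90.4 and 88.5 CPM with the AGO1 antibody, 37.0, 42.5 and 67.0 with the AGO2 antibody and 31.9, 25.3 and 23.9 with the pan-AGO antibody, against 1104 to 1692.7 in whole-cell RNA. Its changes were -3.10 ± 0.45, -4.75 ± 0.48 and -5.60 ± 0.50. tRNA-Gln changed by -1.79 ± 0.42, -3.45 ± 0.45 and -3.27 ± 0.45, and tRNA-Val by -1.21 ± 0.42, -3.34 ± 0.45 and -2.32 ± 0.44; the call of Val in the AGO1 IP was lost without WT whole-cell replicate 3 (-0.91, adjusted p = 0.0666).

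MT-TS2, the transcript row of tRNA-Ser(GCT), was at 213, 179.9 and 148 CPM in whole-cell RNA. With the AGO1 antibody it reached 3140.9, 7192.1 and 4591.7, with the AGO2 antibody 1355, 1430 and 1207.2, and with the pan-AGO antibody 2492.4, 5533.4 and 2541.6. No IP library overlapped whole-cell RNA, and the changes were 4.78 ± 0.49, 2.88 ± 0.45 and 4.29 ± 0.48 (adjusted p = 2.78e-15, 3.96e-08 and 1.09e-13, edgeR's quasi-likelihood test). With TMM scaling they were 2.61, 3.36 and 2.45. MT-TL1 changed by 4.95 ± 0.47, 2.21 ± 0.43 and 3.47 ± 0.45. MT-TM, the transcript row of tRNA-Met, was higher by 2.81 ± 0.41, 2.06 ± 0.40 and 3.45 ± 0.41, and kept its call under TMM in the AGO2 and pan-AGO IPs.

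tRNA-Ser(GCT) itself made up 12.3, 13.5 and 10.7% of mitochondrial tRNA counts in the AGO1, AGO2 and pan-AGO IPs against 1.85% in whole-cell RNA. tRNA-Phe made up 23.6, 17.0 and 29.4% against 8.76%, and tRNA-Glu 16.3, 12.4 and 8.88% against 42.5%. In the AGO1 IP tRNA-Ser(GCT) was higher by 2.82 ± 0.44 and tRNA-Phe by 1.51 ± 0.43 (adjusted p = 0.000804, edgeR's quasi-likelihood test). With TMM scaling neither was called and tRNA-Phe turned to -0.68. The 8 minus-strand tRNAs, tRNA-Glu among them, had mean shares of 34.6, 31.0 and 23.2% of mitochondrial tRNA counts in these IPs. Their shares in the single whole-cell libraries were 59.1, 65.5 and 53.2%. The median log2 change of the minus-strand tRNA rows in the AGO1, AGO2 and pan-AGO IPs was 0.77, -1.48 and -0.19. For the plus-strand rows it was lower in each, at 0.27, -1.70 and -0.70.

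Messenger rows were a larger part of the mitochondrial RNA in the IPs. They held 6.13% ± 1.31 of counts in the AGO1 IP and 5.10% ± 1.62 in the pan-AGO IP against 1.103% ± 0.12 in whole-cell RNA. In the AGO2 IP the figure was 1.02% ± 0.0282. Of the counts outside mature miRNA rows it was 7.37, 5.63 and 8.68% in the AGO1, AGO2 and pan-AGO IPs against 1.165%. All 13 mRNA rows were higher in the AGO1 IP and in the pan-AGO IP under total counts, as were 83.6% and 76.8% of all features. With TMM scaling 2 were higher in each, beside 12.2% and 13.1% of features, and 1 was lower with the AGO1 antibody. For the AGO2 antibody none was higher and 1 was lower under total counts, and all 13 were higher under totals without mature miRNA rows, as were 73.4% of features.

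MT-CO3 was at 954, 1098.5 and 985 CPM in whole-cell RNA, 11320, 16689 and 20621 in the AGO1 IP and 11514, 11810 and 9694.4 in the pan-AGO IP. It was higher by 4.001 ± 0.47 and 3.44 ± 0.45 (adjusted p = 7.6e-13 and 1.07e-10, edgeR's quasi-likelihood test), and by 1.80 and 1.67 with TMM scaling. MT-ND3 was higher by 3.35 ± 0.45 and 2.95 ± 0.44. MT-ND4 was higher by 2.85 ± 0.44 in the AGO1 IP and MT-CYB by 2.41 ± 0.44 in the pan-AGO IP, and both calls were lost with TMM scaling (0.64 and 0.53).

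Against whole-cell RNA, 35 of the 58 rows had risen and 4 had fallen in the AGO1 IP, beside 83.6% and 4.79% of 27657 features. For the AGO2 IP 4 rows were up and 25 down (4.19% and 14.5% of features), and for the pan-AGO IP 27 were up and 11 down (76.8% and 6.51%). The medians of all features were 2.23, -0.51 and 1.89, and 15 of 58, 27 of 58 and 12 of 58 members lay above them. Among the 22 tRNA rows 7, 0 and 4 were higher and 3, 16 and 7 lower, and none was higher in the AGO1 or pan-AGO IP with TMM scaling. Against each other, all 58 rows were higher in the AGO1 than in the AGO2 IP, where 91.7% of features were higher and 1.97% lower. The rows were led by MT-CO3 (3.09 ± 0.46), MT-ND3 (3.06 ± 0.45) and MT-ND4 (3.05 ± 0.47). With TMM scaling none of the 58 was higher and 4 were lower, beside 4.5% and 6.45% of features.

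**Figure D5:**
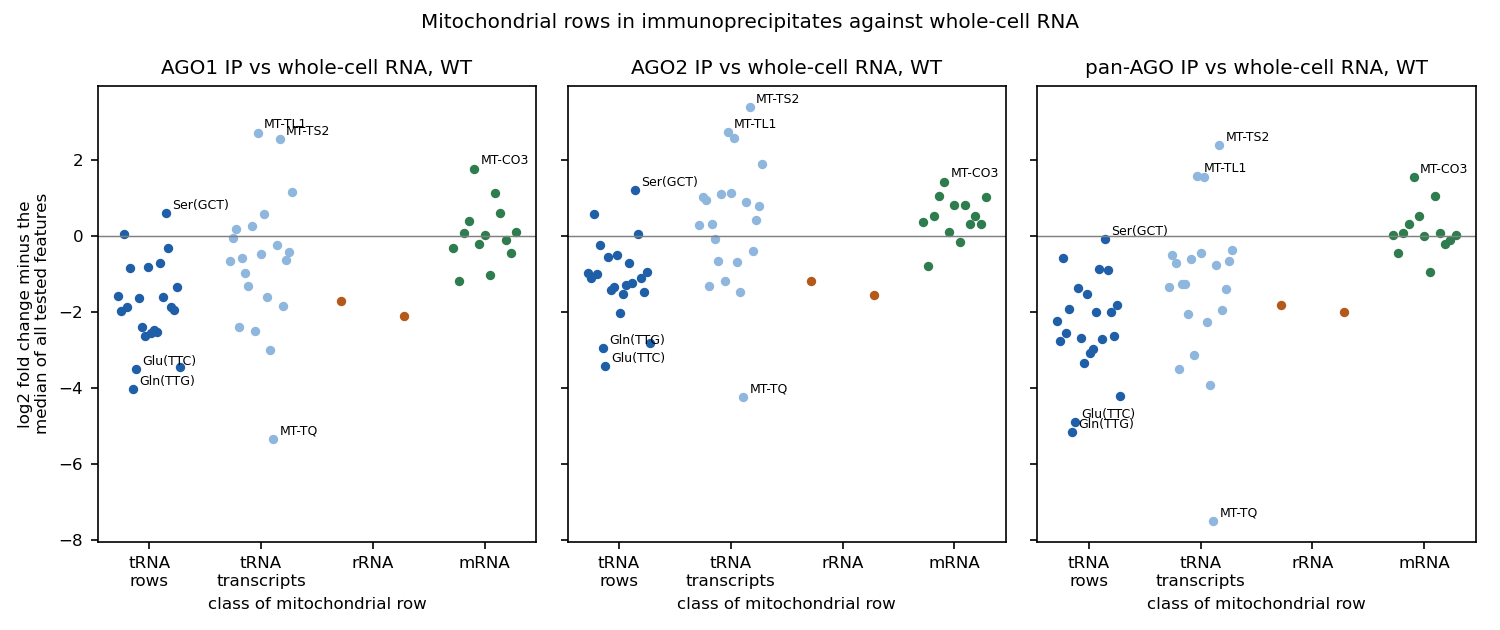
Log2 fold change of each mitochondrial row in the AGO1, AGO2 and pan-AGO IP of WT cells against WT whole-cell RNA, less the median of all features, by class of row. MT-TS2 and MT-TL1 lie highest and MT-TQ lowest; the tRNA rows lie mostly below 0.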

How the data were processed

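The authors deposited, for each of 45 libraries, a table of whole-number counts per RNA feature. Per the labels' protocols the libraries came from Trizol-extracted whole-cell RNA or AGO immunoprecipitates and were made with the Illumina TruSeq Small RNA kit. Per the submitters' processing notes, cutadapt 1.16 and Bowtie 1.1.2 were used with the hg38 (GRCh38) build; how reads matching several features were treated was not stated there. Libraries of 1 group differed beyond sampling noise (chi-square per degree of freedom 2.686 to 124). Ensembl rows were joined to GENCODE release 29, which held the first transcript of 96.66% of 162398 rows, and the 22 tRNA row names matched its tRNA genes by position.

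Counts were tested with edgeR 4.0.16 (quasi-likelihood, R 4.3.3) in 3 fits: 24 whole-cell libraries (18805 features), 21 IP libraries (32538) and 12 WT libraries (27657). Features passed filterByExpr (minimum count 10, minimum total 15), the library size was the total of all counts, and p-values were adjusted by Benjamini-Hochberg over all tested features, with 0.05 as the threshold. The SE is the log2 fold change divided by the root of F. The interaction of knockout and IP was added after seeing the data. Alternatives were TMM and RLE factors, totals without mature miRNA rows, no count filter, a minimum count of 50, a replicate block, fits of the 2 groups alone, DESeq2 1.42.0 and leaving out each library. On simulated data 99.0% of 4-fold and 46.5% of 2-fold changes were recovered for the AGO1 knockout design (16339 features). For the AGO1 IP 78.1% and 6.32% were recovered (27040 features). The changed features were drawn only from those above a floor of expected counts, so these rates do not cover rows of low count. Deviations of same-numbered libraries correlated above 0.1 in all 3 pairs only in the AGO1 IP of AGO1 knockout against WT cells (0.375, 0.197 and 0.501). In the pan-AGO IP of AGO1/2 knockout against WT cells the correlations were 0.167, 0.082 and 0.392.

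The mitochondrial rows, the gene lists and the markers were chosen with earlier results of these data known. Genes are named by rule: up to 8 called rows in each direction, by size of change, at 20 CPM or more in 1 group and without overlap, plus the 5 tRNA and 4 transcript rows highest in WT; up to 3 genes per list.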

Additional observations from a re-analysis of the deposited data

Results flagged for a closer look

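The AGO1/2/3 knockout effect differed between the pan-AGO IP and whole-cell RNA for 8 mitochondrial rows by a test of the difference itself (edgeR's quasi-likelihood test of the interaction, n = 3 libraries in each of the groups). They were the tRNA rows Val (2.83 ± 0.63), Tyr (2.47 ± 0.58), Thr (2.14 ± 0.52) and Ser(TGA) (1.85 ± 0.53) and the transcript rows MT-TH (2.42 ± 0.53), MT-TV (2.35 ± 0.53), MT-TE (2.21 ± 0.56) and MT-TT (2.00 ± 0.50). The median of all features in that difference was 0.61, and no row was called when libraries were scaled by TMM or by totals without mature miRNA rows.

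The deposited tables also hold 22 rows for the trailers of mitochondrial tRNA genes, the stretch just downstream of a tRNA, which enter no comparison above. In WT whole-cell RNA they held 0.0014 to 0.00186% of a library's counts. The IPs of knockout cells were left out of this check. Of the other groups, 6 held more in every library than any WT whole-cell library. The means were 0.004077% in the TNRC6A, 0.00461% in the TNRC6B and 0.003413% in the TNRC6A/B knockout. Among WT IPs they were 0.009191% with the AGO1 antibody, 0.00213% with the AGO2 antibody and 0.004968% with the pan-AGO antibody. For 8 tested trailer rows the median log2 change was 1.44, 1.501 and 1.15 in the TNRC6 knockouts, in that order. For all features it was 0.57, 0.57 and 0.58. For 7 tested rows in these IPs against whole-cell RNA it was 2.79, 0.496 and 1.77. All features had 2.23, -0.51 and 1.89, so the pan-AGO median of the trailer rows lay below theirs. In the AGO1 and pan-AGO IPs 83.6% and 76.8% of all features were higher. The differences of these medians were not tested.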

How the results depend on the processing

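Of 107 named calls in 13 comparisons, 76 kept their direction and side of the threshold under TMM, 76 under RLE factors, 86 under totals without mature miRNA rows, 86 under DESeq2, 98 without a count filter, 107 at a minimum count of 50, 107 with the replicate block and 105 in fits of 2 groups; of 642 values with 1 library left out, 580 did and 62 lost the call. The direction turned in 7 values: tRNA-Gly in the AGO2 IP of knockout cells (-0.7894 TMM, -0.8275 RLE and DESeq2, -0.8145 totals without miRNA) and tRNA-Phe in the AGO1 IP against whole-cell RNA (-0.6772 TMM, -0.6733 RLE and DESeq2).

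Members called moved by over 1.5 times as follows, and the cause was not tested. Brackets give the percent of all features called higher and lower under that setting. AGO1 knockout, 6 called: 3 TMM (3.79 and 3.88), 12 minimum count 50 (14.8 and 11.6), 15 in the 2-group fit (8.58 and 4.86). AGO2 knockout, 0: 1 without a filter (0.0194 and 0.0181), with the replicate block (0.101 and 0.218) or in the 2-group fit (0.0463 and 0.222). AGO1/2 knockout, 2: 1 under TMM (1.83 and 2.17), RLE (1.8 and 2.16), miRNA-free totals (1.24 and 2.27) or no filter (0.0968 and 0.19). For the same knockout, 5 at minimum 50 (5.33 and 7.1), 13 in the 2-group fit (8.63 and 7.79), 4 with DESeq2 (2.6 and 3.1). AGO1/2/3 knockout, 17: 30 RLE (12.4 and 10.2), 11 miRNA-free (6.08 and 22.1), 6 without a filter (0.607 and 1.53), 36 DESeq2 (11 and 7.5). AGO2 IP of knockout cells, 56: 2 under TMM (0.24 and 3.92), RLE (0.209 and 4.02) or miRNA-free totals (0.157 and 4.04) and 3 with DESeq2 (0.197 and 4.86), all lower. Pan-AGO IP, AGO1/2 knockout, 6: 0 under TMM (1.03 and 1.61), RLE (0.947 and 1.69) or miRNA-free totals (0.479 and 2.1), 10 at minimum 50 (6.13 and 3.0). Pan-AGO IP, AGO1/2/3 knockout, 46: 30 miRNA-free (3.86 and 20.6). AGO1 against AGO2 IP, 58: 4 TMM (4.5 and 6.45), 5 RLE (3.69 and 6.82), 2 miRNA-free (13.9 and 5.17), 8 DESeq2 (4.14 and 8.06), all lower. AGO2 IP against whole-cell RNA, 29: 45 miRNA-free (73.4 and 2.7). The 8 interaction calls were 0 under TMM (0.192 and 1.11) and 0 under miRNA-free totals (0.164 and 1.82).

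With 1 library left out, called members ranged over 1 to 9 in the AGO1 and 0 to 1 in the AGO2 knockout. They ranged over 1 to 1 in the AGO1/2 and 7 to 14 in the AGO1/2/3 knockout. The ranges were 32 to 35, 35 to 37 and 34 to 38 in the TNRC6A, TNRC6B and double knockouts. In IPs of knockout cells they were 0 to 0 (AGO1), 54 to 56 (AGO2), 0 to 7 (pan-AGO, AGO1/2) and 36 to 45 (pan-AGO, AGO1/2/3). Between the AGO1 and AGO2 IPs 57 to 58 were called. Against whole-cell RNA 37 to 41, 24 to 28 and 32 to 39 were called in the AGO1, AGO2 and pan-AGO IPs. Shares of all features called are not given for these fits, and those with all libraries stand above. With all libraries 90.3% of features rose and 2.07% fell in the AGO2 IP of knockout cells. Between the AGO1 and AGO2 IPs 91.7% were higher and 1.97% lower.

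The share of mitochondrial tRNA rows had leave-one-out ranges of 14.16 to 15.45% in WT, 16.77 to 22.81% in the AGO1, 14.36 to 14.64% in the AGO2, 18.54 to 19.74% in the AGO1/2 and 17.5 to 18.22% in the AGO1/2/3 knockout, 2.364 to 2.988%, 3.167 to 3.685% and 3.2 to 3.293% in the TNRC6A, TNRC6B and double knockouts, 15.83 to 16.12% and 17.67 to 21.42% in the AGO1 IP of WT and knockout cells, 3.253 to 3.419% and 13.59 to 14.3% in the AGO2 IP, and 7.745 to 10.06%, 14.32 to 16.28% and 20.4 to 24.39% in the pan-AGO IP of WT, AGO1/2 and AGO1/2/3 knockout cells. Over counts without Ensembl transcript rows, in the same order, it was 20.38, 27.59, 20.39, 27.72, 29.04, 4.024, 5.122, 4.881, 36.22, 51.47, 3.669, 23.88, 16.57, 39.22 and 68.99%. Over counts without mature miRNA rows it moved beyond the spread in the AGO2 knockout (15.06%), the TNRC6 double knockout (3.62%), the AGO1 IP of WT cells (19.47%), the AGO2 IP of WT and knockout cells (18.38 and 17.28%) and the pan-AGO IP of WT and AGO1/2 knockout cells (15.58 and 19.23%).

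Outside the AGO1 IP of AGO1 knockout against WT cells, the 3 pairs of same-numbered libraries did not all correlate above 0.1. In those other comparisons the replicate block changed the count of calls by over 1.5 times only in the AGO2 knockout, given above. In the AGO1 IP of AGO1 knockout against WT cells the block left the count of called members unchanged. There it called 0.0553% of all features higher and 1.45% lower. Transcript rows of a few CPM are limited by depth, and counting error alone is covered by no interval here.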

Other observations

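Both background lists were followed in the TNRC6 knockouts, where 33.4 to 34.3% of all features rose and 11.4 to 11.6% fell. Of 6 tested nuclear genes for mitochondrial transcription, RNA processing and decay 2 rose and none fell in each knockout. TRMT10C, a mitochondrial RNase P subunit, rose by 0.92 ± 0.30 in the TNRC6A knockout (adjusted p = 0.0101, edgeR's quasi-likelihood test), from 5.43 to 10.2 CPM, and by 0.71 ± 0.30 in the double knockout (adjusted p = 0.0456), and stood at 0.69 ± 0.30 in the TNRC6B knockout (adjusted p = 0.0563). LRPPRC stood at -0.46 ± 0.28 in the TNRC6A knockout (adjusted p = 0.183). Of 17 nuclear-encoded respiratory chain subunits 8, 10 and 8 rose and 1 fell in each. COX5A, a cytochrome oxidase subunit, fell by 1.20 ± 0.32, 1.02 ± 0.31 and 1.05 ± 0.31, and ATP5F1A of the ATP synthase rose by 0.77 ± 0.30, 1.22 ± 0.29 and 0.73 ± 0.29.

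Nuclear copies of mitochondrial genes held 0.524% of counts in WT whole-cell RNA, 0.243 to 0.259% in the TNRC6 knockouts and 2.63% in the pan-AGO IP of the AGO1/2/3 knockout. In the pan-AGO IP of that knockout LRPPRC fell by 1.96 ± 0.40 (adjusted p = 0.000484, edgeR's quasi-likelihood test), from 74.5 to 19.0 CPM. It was the 1 gene called of 13 tested in its list, where 9.55% of all features rose and 5.47% fell.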
